A study of Mus musculus with 12 samples.

Results

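The genes described here are 35 genes of glycolysis, lactate handling and the response to low oxygen, followed in mouse embryonic stem cells (ESCs) that received a short hairpin RNA against Ino80. They were taken from a fixed list of gene symbols, by matching each probe's printed name, or its current symbol through an older symbol or a RefSeq accession. The array carried 61 probes for 34 of them, and 57 of these probes passed the filter on dim probes. All 34 genes were among the 19183 genes tested, and the reported probe of each was well above background on 12 of 12 arrays. The remaining one, Gapdh, the glyceraldehyde-3-phosphate dehydrogenase, had no probe of that name and was not analysed here.

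The cells were J1, a mouse ESC line, with RNA measured on 12 Agilent arrays of 1 colour. Lentivirus brought in either a non-targeting hairpin (shRNA_NT, here shNT) or a hairpin against Ino80 (shRNA_Ino80, here shIno80). Ino80 encodes the ATPase of a chromatin remodelling complex that moves nucleosomes. RNA was taken 2, 4 or 6 days after infection, which the design also gives as 48, 96 and 144 hours, so the 6 groups were shNT and shIno80 at day 2, day 4 and day 6, with 2 arrays each. Cells were kept in ESGRO medium and moved to M15 medium for the infection, all groups alike. The design lists the arrays of a group as biological replicates. Nothing in the labels says how the cultures of a pair were separated, so the p-values rest on a spread among samples that may be technical. A single hairpin against Ino80 is named for these samples.

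The deposited records disagree on 6 of the 12 arrays. Each column of the deposited value table matched exactly 1 scanner file, and for the arrays at positions 2 and 3 of each of the 3 slides that file was attached to a sample of the other hairpin. Samples were taken from the value table's columns. By these, shNT lay at positions 1 and 3 and shIno80 at positions 2 and 4 of every slide, so hairpin and position cannot be told apart. That choice was made with the Ino80 signal known, so the Ino80 values are no independent check of it. Ino80 stood at 2.72 and 2.67 on the shNT arrays and 0.56 and 0.85 on the shIno80 arrays at day 2, at 2.26 and 2.16 versus -0.29 and 0.12 at day 4, and at 1.89 and 2.05 versus -0.23 and -0.01 at day 6. These are log2 signals relative to each array's 75th percentile, the scale of every level below. When samples were instead taken from the scanner file attachments, limma called 0 of the 34 genes on any day, and 0 had an unadjusted p under 0.05. Of all 19003 genes tested that way, limma called 2, 7 and 0 at days 2, 4 and 6. The share of probes well above background ranged from 62.3% to 69.7% over the arrays, and arrays of the same group correlated at 0.991 to 0.994 over all kept probes.

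Glycolysis splits glucose into pyruvate in the cytosol. Hexokinase, phosphofructokinase and pyruvate kinase catalyse its committed steps, and lactate dehydrogenase turns pyruvate into lactate, which leaves the cell through monocarboxylate transporters. Hypoxia-inducible factors (HIFs), which are dimers of an oxygen-labile alpha subunit and ARNT, raise the transcription of many of these genes by binding a short element around RCGTG. Mouse ESCs are known for a high rate of glycolysis.

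The HIF element gives a sequence by which the genes can be set side by side. Promoters of 32 of the 34 genes were matched by symbol in the RefSeq table (GRCm38.p6), and the 250 bases before the outermost start of each were searched for ACGTG and GCGTG on both strands. ACGTG overlaps the E-box CACGTG, which other factors bind. A match was present in 24 of 32 promoters, or 75%, versus 52.8% of the promoters of all genes tested and 38.6% of all 27025 promoters in the table. A match is a description of the letters, not a bound site. The promoters of the 3 genes with the largest rises among those called at day 6 are shown first, with each match in capitals. They are Pfkfb3 at chr2:11553930-11554179 (minus strand), Eno3 at chr11:70656926-70657175 (plus strand) and P4ha2 at chr11:54100674-54100923 (plus strand).
Pfkfb3: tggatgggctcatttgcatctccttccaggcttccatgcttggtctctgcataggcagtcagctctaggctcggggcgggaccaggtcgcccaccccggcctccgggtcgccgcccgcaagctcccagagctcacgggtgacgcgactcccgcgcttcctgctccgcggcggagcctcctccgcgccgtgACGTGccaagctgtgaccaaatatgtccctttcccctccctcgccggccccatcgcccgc
Eno3: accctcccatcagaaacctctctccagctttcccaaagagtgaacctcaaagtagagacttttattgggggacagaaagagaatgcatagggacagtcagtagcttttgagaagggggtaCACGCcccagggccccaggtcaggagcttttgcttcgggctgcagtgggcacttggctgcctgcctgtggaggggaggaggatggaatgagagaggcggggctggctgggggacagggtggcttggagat
P4ha2: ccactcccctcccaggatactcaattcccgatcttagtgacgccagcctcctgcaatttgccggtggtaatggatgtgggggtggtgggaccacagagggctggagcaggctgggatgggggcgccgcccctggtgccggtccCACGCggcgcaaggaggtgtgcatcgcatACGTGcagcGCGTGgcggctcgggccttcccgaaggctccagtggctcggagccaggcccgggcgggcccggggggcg

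The 3 genes with the largest falls among those called at day 6 also hold matches. They are Egln3 at chr12:54203875-54204124 (minus strand), Aldoc at chr11:78322823-78323072 (plus strand) and Pfkp at chr13:6648772-6649021 (minus strand).
Egln3: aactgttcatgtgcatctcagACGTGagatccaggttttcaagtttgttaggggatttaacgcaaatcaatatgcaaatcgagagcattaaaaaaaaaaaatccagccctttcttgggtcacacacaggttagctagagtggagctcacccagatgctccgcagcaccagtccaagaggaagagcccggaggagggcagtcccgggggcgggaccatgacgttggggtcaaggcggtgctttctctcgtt
Aldoc: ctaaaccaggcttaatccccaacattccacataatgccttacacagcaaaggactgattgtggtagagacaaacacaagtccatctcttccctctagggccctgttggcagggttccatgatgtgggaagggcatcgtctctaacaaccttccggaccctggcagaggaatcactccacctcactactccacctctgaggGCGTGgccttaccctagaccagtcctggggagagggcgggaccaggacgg
Pfkp: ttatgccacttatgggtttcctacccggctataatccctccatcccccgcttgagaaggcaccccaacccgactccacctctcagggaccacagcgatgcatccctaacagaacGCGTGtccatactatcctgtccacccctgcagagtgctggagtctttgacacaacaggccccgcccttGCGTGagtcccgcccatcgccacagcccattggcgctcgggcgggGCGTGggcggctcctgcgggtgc

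Ldha and Pgk1 are shown because they are textbook targets of HIF and hold several matches, and Pgam2 because it fell and holds none in this window. Ldha lies at chr7:46845554-46845803 (plus strand), Pgk1 at chrX:106186850-106187099 (plus strand) and Pgam2 at chr11:5803797-5804046 (minus strand). Ldha held 5 matches, which include both strands of a pair of CACGTG E-boxes, and Pgk1 held 2.
Ldha: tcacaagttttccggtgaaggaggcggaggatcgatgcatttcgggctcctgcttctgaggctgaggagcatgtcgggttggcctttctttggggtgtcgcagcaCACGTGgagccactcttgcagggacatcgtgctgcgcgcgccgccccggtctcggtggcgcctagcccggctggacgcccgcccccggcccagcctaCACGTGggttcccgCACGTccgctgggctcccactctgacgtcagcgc
Pgk1: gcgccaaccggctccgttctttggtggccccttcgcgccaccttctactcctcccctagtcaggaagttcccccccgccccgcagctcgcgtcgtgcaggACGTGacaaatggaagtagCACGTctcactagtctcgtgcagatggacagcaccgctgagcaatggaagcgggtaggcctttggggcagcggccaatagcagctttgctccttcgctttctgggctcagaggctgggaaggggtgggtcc
Pgam2: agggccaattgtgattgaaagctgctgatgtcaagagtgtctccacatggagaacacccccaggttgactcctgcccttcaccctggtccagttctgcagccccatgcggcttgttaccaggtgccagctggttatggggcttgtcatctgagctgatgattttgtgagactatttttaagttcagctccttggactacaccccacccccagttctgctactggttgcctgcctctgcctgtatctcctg

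Promoters with a match were found among the genes that rose and those that fell. Of the genes called higher at day 6, 4 of 5 with a promoter sequence held a match, and of those called lower, 14 of 18 did.

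**Figure D1:**
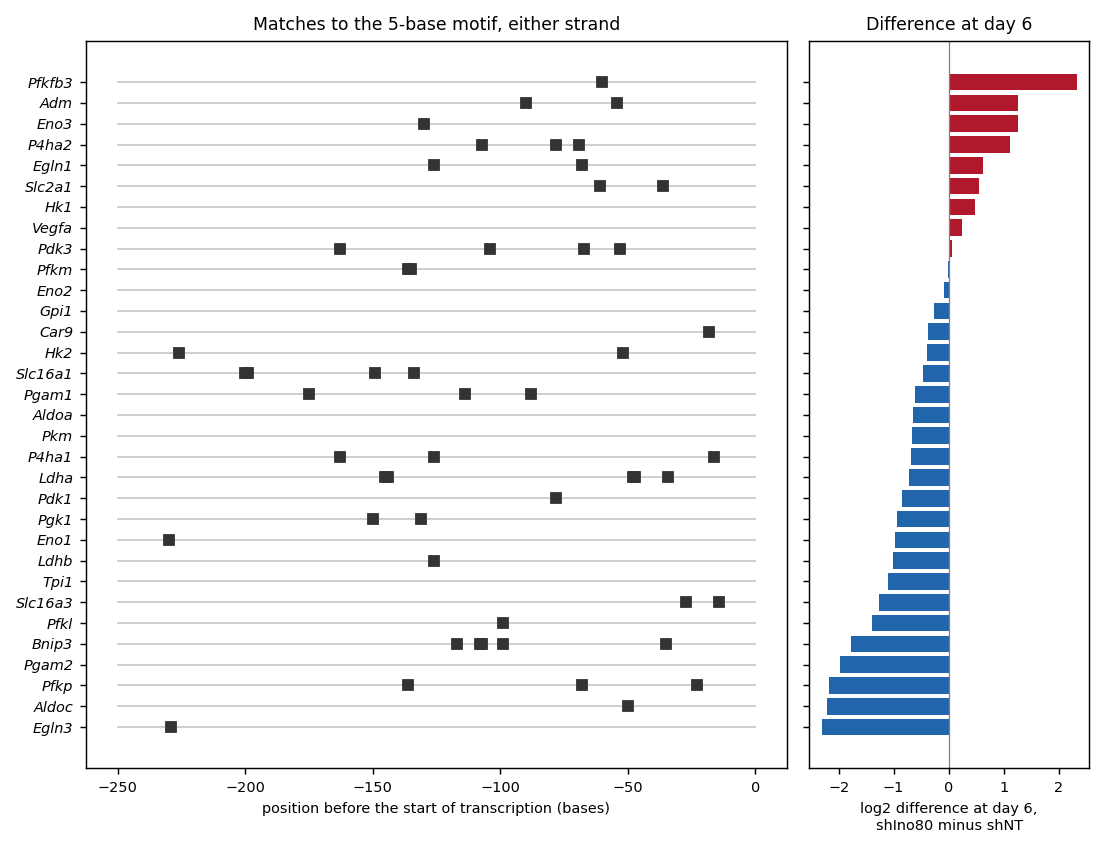
Left, positions of matches to ACGTG or GCGTG on either strand (squares) in the 250 bases before the start of transcription, for the 32 genes with a promoter sequence; right, the log2 difference of each gene at day 6, shIno80 minus shNT. Genes are ordered by that difference, and matches occur at both ends of the order, from Pfkfb3 at 2.33 to Egln3 at -2.31.

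After 2 days, few of the genes differed between shIno80 and shNT. By day 4 most did, and by day 6 the enzymes from phosphofructokinase to lactate dehydrogenase were mostly lower in shIno80. Slc2a1, Slc2a3, Hk1, Pfkfb3, Eno3 and P4ha2 were higher at day 6. At day 2, limma called 2 of 34 genes (Benjamini-Hochberg adjusted p under 0.05 over all genes), 1 higher and 1 lower, where 12.5% of all genes tested were called, 6.29% higher and 6.21% lower. At day 4 it called 22 of 34, 8 higher and 14 lower, beside 42.3% of all genes. At day 6 it called 24 of 34, 6 higher and 18 lower, beside 50.6% of all genes. By direction, all genes were called higher at 20.9% and lower at 21.3% at day 4, and higher at 21% and lower at 29.5% at day 6. The median log2 difference of the 34 genes was -0.04, -0.32 and -0.54 at days 2, 4 and 6, beside 0.02, -0.05 and -0.14 over all genes tested. The number called depended on the background correction. With the normexp correction fitted to all spots, 0 of the 34 genes were called at day 2, 4 at day 4 and 13 at day 6, with 4, 11 and 18 at an unadjusted p under 0.05. Of all 19183 genes, 5, 1695 and 2913 were called with that correction, beside 2397, 8107 and 9700 without it. With the same correction fitted after marked outlier spots were left out, a setting chosen after that result was seen, 2, 22 and 27 of the 34 were called. Of all genes, 2538, 8193 and 10358 were. The day 4 count also fell without replicate 1 of shNT at day 4, and without replicate 2 of shIno80 at day 4. In each of these refits fewer of all genes tested were called as well. The median day 4 difference of the 34 genes was then -0.25 and -0.3, beside -0.06 and -0.07 over all genes. The genes that lost the call without either array were Pfkl, Pfkm, Pgk1, Pgam1, Eno3, Ldha, Slc16a1, Pdk1, Pdk3, Egln1 and Adm.

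Of the 24 calls at day 6, 19 passed whichever array was left out, and the other 5 were Slc2a1, Slc2a3, Hk1, Slc16a1 and Car9. The 13 called with normexp fitted to all spots were Pfkl, Pfkp, Pfkfb3, Aldoc, Tpi1, Pgk1, Pgam2, Eno3, Slc16a3, Pdk1, Bnip3, Egln3 and P4ha2, and these 13 were called under every alternative with a test other than the scanner file attachments. At day 4 the 4 were Pfkp, Pfkfb3, Eno3 and P4ha2. The balance of directions over all genes depends on the scaling: of the genes called at day 6, 41.6% were higher, and 62% were with the authors' deposited log2 value table. At day 4 the share was 49.6%, and 39.2% when arrays were scaled to their medians.

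**Figure D2:**
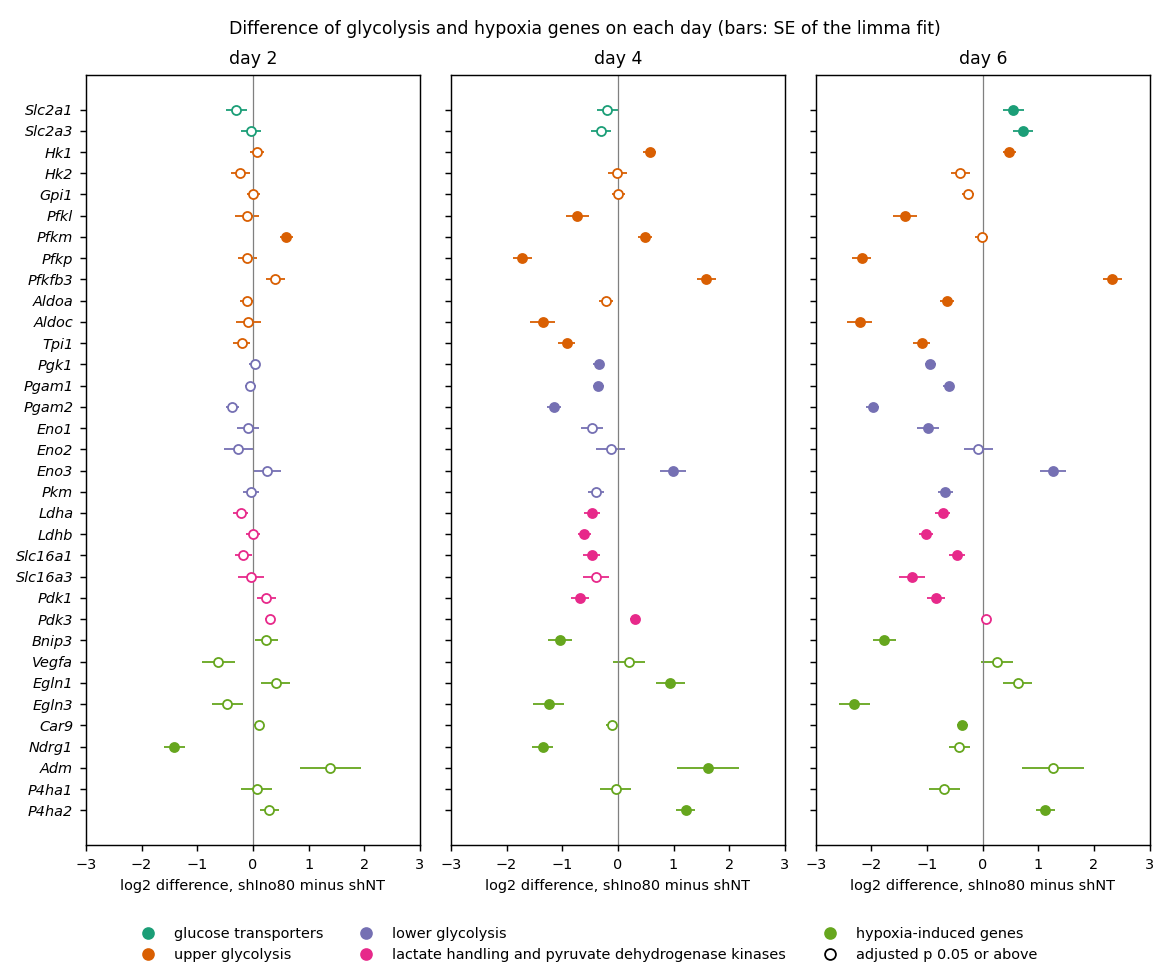
Log2 difference, shIno80 minus shNT, of 34 genes at days 2, 4 and 6, with the SE of the limma fit as bars, coloured by role; open points have an adjusted p of 0.05 or above. Most points are open at day 2, and at day 6 the filled points run from 2.33 for Pfkfb3 to -2.31 for Egln3.

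The markers of cell identity moved over the same days. The summed linear signal of 10 ESC markers (Pou5f1, Nanog and others), in units of each array's 75th percentile, was 678 to 747 on the shNT arrays of all days. On the shIno80 arrays it was 556 to 597, 368 to 409 and 266 to 276 at days 2, 4 and 6, and 10 of 10 of these markers were called lower at day 4 and at day 6. The sum of 10 trophectoderm markers (Krt8, Krt18, Cdx2, Hand1 and others) was 6.92 to 8.27, 8.78 to 10.8 and 18.0 to 23.3 in shNT at days 2, 4 and 6. In shIno80 it was 9.61 to 12.1, 153 to 165 and 526 to 549, and 10 of 10 were called higher than in shNT at day 6. Within shNT, 6 of the 10 were called higher at day 6 than at day 2. Elf5, also a listed trophectoderm marker, had no kept probe and is not in the sum. Among the 10 in the sum, Plac1 was not well above background in any shNT group. A linear sum is weighted to the brightest markers. In shIno80 at day 6, Krt8 and Krt18 had mean log2 levels of 7.56 and 8.16, and Cdx2 and Hand1 of 0.31 and 2.37. Of 9 fibroblast markers 5 were called higher and 1 lower at day 6, with sums of 38.9 to 41.8 in shIno80 versus 27.1 to 28.7 in shNT. Lum was not well above background in shNT, and Postn, also listed, had no kept probe. Of 7 primitive endoderm markers 1, Dab2, was called higher and 1, Pdgfra, lower at day 6, with sums of 1.64 to 1.75 in shIno80 versus 0.83 to 0.999 in shNT. The shares called at day 6 were 66.7% of the fibroblast and 28.6% of the primitive endoderm markers, beside 50.6% of all genes tested. All genes were called lower at 21.3% at day 4, and higher at 21% and lower at 29.5% at day 6. Within shNT, 11.7% of all genes were called higher at day 6 than at day 2. The part of these marker changes in the differences below was not tested. In bulk RNA, fewer cells of a type and less RNA per cell cannot be told apart.

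Both glucose transporters among the 34 genes, which bring glucose into the cell, rose by day 6 and passed the test on no earlier day. Other glucose transporters, described below, did not all rise. Slc2a1, which encodes GLUT1, the widespread basal glucose transporter, read 5.99 and 5.63 on the shNT arrays and 6.40 and 6.32 on the shIno80 arrays at day 6. Both shIno80 arrays lay above both shNT arrays, a 1.47-fold rise (log2 0.55 ± 0.19 SE, limma adjusted p = 0.0397). The call was lost when any one of 7 arrays was left out: either shNT or either shIno80 array of day 4, replicate 2 of shNT at day 6, or either shIno80 array of day 6. Slc2a3, which encodes the high-affinity transporter GLUT3, read 5.65 and 5.61 in shNT, with 6.31 and 6.40 in shIno80 at day 6. Its rise was 1.65-fold (log2 0.72 ± 0.18, limma adjusted p = 0.0102). At day 4 the Slc2a3 levels were 4.60 and 4.39 in shNT, with 4.30 and 4.09 in shIno80, a difference of -0.30 that did not pass (limma adjusted p = 0.226). The other kept Slc2a3 probe, well above background on 4 of 12 arrays, differed by 0.18 at day 6 and was not called (limma adjusted p = 0.608 over all kept probes), so the call rests on the reported probe. A further Slc2a3 probe was not above background on any array.

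Of the hexokinases, which trap glucose as glucose 6-phosphate, Hk1 was called and Hk2 was not. Hk1 read 2.13 and 2.25 in shNT, with 2.65 and 2.87 in shIno80 at day 4. At day 6 it read 2.42 and 2.34 versus 2.89 and 2.84. It was called higher at both times, by log2 0.57 ± 0.12 (limma adjusted p = 0.00583) and 0.48 ± 0.12 (limma adjusted p = 0.0104). The 3 further probes kept for Hk1, each well above background on 12 of 12 arrays, were not called: they differed by 0.33, 0.34 and 0.46 at day 4 and by 0.26, 0.13 and 0.26 at day 6, with limma adjusted p-values over all kept probes from 0.253 to 0.764. The call of Hk1 therefore rests on its reported probe. Within each hairpin the reported Hk1 probe fell from day 2 to day 6, by 0.82 in shNT and 0.40 in shIno80 on the log2 scale. Hk2, the inducible hexokinase, stood at 3.73 and 3.63 in shNT, with 3.37 and 3.19 in shIno80 at day 6, and its difference of -0.40 did not pass (limma adjusted p = 0.0912). Gpi1, which makes fructose 6-phosphate, differed by -0.26 at day 6 and did not pass (limma adjusted p = 0.0904).

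The 3 phosphofructokinase genes and the enzyme that regulates them showed the widest range of responses in upper glycolysis. Pfkp, the platelet-type subunit of phosphofructokinase, read 3.45 and 2.94 in shNT, with 3.17 and 3.03 in shIno80 at day 2, and the groups overlapped. At day 4 it read 1.81 and 1.67 versus -0.02 and 0.06, and at day 6 2.15 and 2.12 versus -0.13 and 0.06. The shIno80 arrays lay far below the shNT arrays on both later days, with falls of 3.30-fold (log2 -1.72 ± 0.17, limma adjusted p = 9.60e-05) and 4.50-fold (log2 -2.17 ± 0.17, limma adjusted p = 2.15e-05). Pfkl, the liver-type subunit, read 4.04 and 4.00 in shNT, with 2.46 and 2.78 in shIno80 at day 6, a 2.63-fold fall (log2 -1.40 ± 0.21, limma adjusted p = 0.000858). At day 4 it was lower by a smaller amount (log2 -0.73 ± 0.21, limma adjusted p = 0.0255).

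Pfkm, the muscle-type subunit, went the other way and earlier. It read 2.85 and 2.90 in shNT, with 3.60 and 3.34 in shIno80 at day 2, a 1.51-fold rise (log2 0.60 ± 0.12, limma adjusted p = 0.0153) and the one gene of the 34 called higher on that day. The day 2 call was lost without replicate 1 of shNT or replicate 1 of shIno80 at day 2. At day 4 Pfkm was still higher (log2 0.49 ± 0.12, limma adjusted p = 0.00905), and at day 6 the groups overlapped (log2 -0.02 ± 0.12, limma adjusted p = 0.915). Pfkfb3, which makes fructose 2,6-bisphosphate, the activator of phosphofructokinase, had the largest rise. Its levels were 0.17 and 0.30 in shNT, with 1.71 and 1.95 in shIno80 at day 4, and 0.66 and 0.21 versus 2.73 and 2.80 at day 6. Every shIno80 array exceeded every shNT array, by 3.02-fold at day 4 (log2 1.59 ± 0.17, limma adjusted p = 0.000173) and 5.02-fold at day 6 (log2 2.33 ± 0.17, limma adjusted p = 1.87e-05).

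The aldolases and triosephosphate isomerase, which make and interconvert the triose phosphates, fell. Aldoc, the brain-type aldolase, read 1.86 and 1.18 in shNT, with 1.56 and 1.33 in shIno80 at day 2. At day 6 it read 1.88 and 1.63 versus -0.60 and -0.30, a 4.62-fold fall (log2 -2.21 ± 0.22, limma adjusted p = 9.32e-05). The groups overlapped at day 2 and were far apart at day 6, and the day 4 fall was 2.55-fold (log2 -1.35 ± 0.22, limma adjusted p = 0.00161). Aldoa, the widespread aldolase, fell less and was called at day 6, where it read 8.19 and 8.12 in shNT, with 7.54 and 7.48 in shIno80 (log2 -0.64 ± 0.12, limma adjusted p = 0.00233). Tpi1, the triosephosphate isomerase, read 5.90 and 5.67 versus 4.99 and 4.74 at day 4 and 6.40 and 6.26 versus 5.18 and 5.28 at day 6. Both falls passed, at log2 -0.92 ± 0.15 (limma adjusted p = 0.00132) and -1.10 ± 0.15 (limma adjusted p = 0.000386). Of the 10 upper glycolysis genes, 3 were called higher and 4 lower at day 4, and 2 higher and 5 lower at day 6. That is 70% called at day 4 and at day 6, beside 42.3% and 50.6% of all genes tested.

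In lower glycolysis, 1 of the 7 genes tested was called higher and 5 lower at day 6, versus 1 and 3 at day 4. That is 85.7% and 57.1% called at days 6 and 4, beside 50.6% and 42.3% of all genes tested. Pgk1, the phosphoglycerate kinase, read 6.90 and 6.75 in shNT, with 5.91 and 5.86 in shIno80 at day 6, a 1.92-fold fall (log2 -0.94 ± 0.10, limma adjusted p = 0.000139). Pgam1, the widespread phosphoglycerate mutase, read 7.27 and 7.24 versus 6.65 and 6.64 (log2 -0.61 ± 0.10, limma adjusted p = 0.000964). In both genes the arrays of a pair lay close together and the hairpins did not overlap. Pgam2, the muscle mutase, fell most of this group. It read -0.67 and -0.94 in shNT, with -1.12 and -1.22 in shIno80 at day 2, -1.15 and -1.11 versus -2.24 and -2.32 at day 4, and -0.84 and -0.86 versus -2.91 and -2.74 at day 6. Its shNT signal stayed within a narrow range while its shIno80 signal was lower on each later day, and the difference was -1.15 ± 0.12 at day 4 (limma adjusted p = 0.000126) and -1.98 ± 0.12 at day 6 (limma adjusted p = 7.23e-06).

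The enolases, which make phosphoenolpyruvate, split by gene. Eno3, the muscle enolase, read 1.41 and 1.71 in shNT, with 2.47 and 2.64 in shIno80 at day 4, and 1.20 and 1.01 versus 2.38 and 2.36 at day 6. It rose 1.99-fold (log2 0.99 ± 0.24, limma adjusted p = 0.00996) and 2.40-fold (log2 1.26 ± 0.24, limma adjusted p = 0.00247). Eno1, the widespread enolase, read 5.01 and 5.13 in shNT, with 3.96 and 4.21 in shIno80 at day 6, a 1.98-fold fall (log2 -0.98 ± 0.20, limma adjusted p = 0.00336). Eno2, the neuronal enolase, differed by -0.08 ± 0.26 at day 6, with overlapping groups, and did not pass (limma adjusted p = 0.836). Pkm, the pyruvate kinase that ends glycolysis, read 6.87 and 6.90 versus 6.11 and 6.32 at day 6 and was called lower (log2 -0.67 ± 0.14, limma adjusted p = 0.00481). Several glycolytic genes, such as Pgk1, Eno1, Ldha and Tpi1, have near-identical processed copies in the mouse genome, and a probe may not tell these apart.

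**Figure D3:**
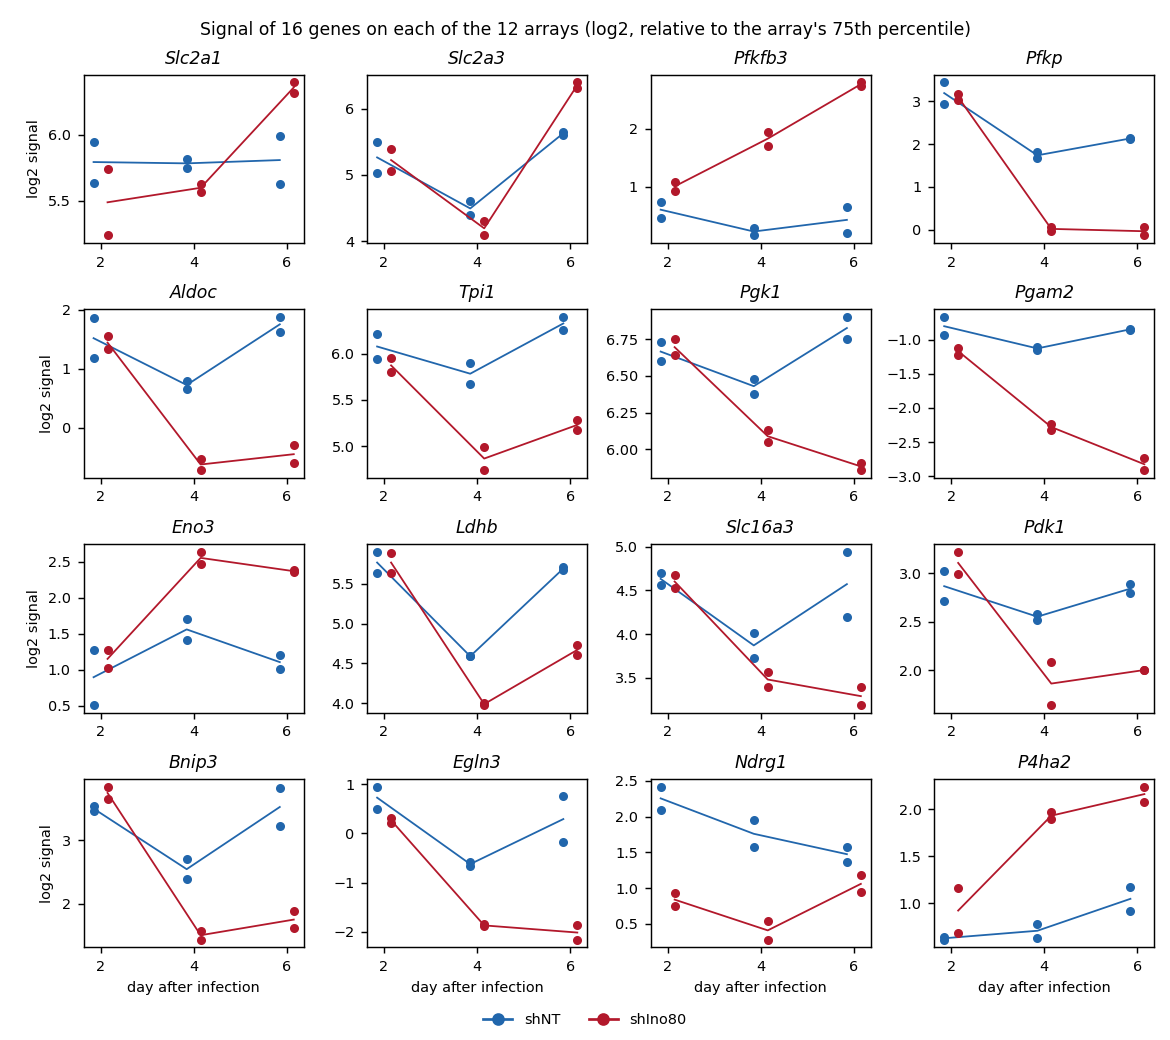
Log2 signal of 16 genes on each of the 12 arrays, relative to the array's 75th percentile, against the day after infection; points are arrays, lines join the group means, blue is shNT and red is shIno80. Pfkp, Aldoc, Bnip3 and Egln3 separate downwards at days 4 and 6, Pfkfb3, Eno3 and P4ha2 separate upwards, and Ndrg1 is apart at day 2.

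Of the 6 genes for lactate handling and for the kinases that inhibit pyruvate dehydrogenase, 1 was called higher and 4 lower at day 4. At day 6, 0 were called higher and 5 lower. That is 83.3% called at day 4 and at day 6, beside 42.3% and 50.6% of all genes tested. Ldha, which makes lactate from pyruvate, read 7.61 and 7.46 in shNT, with 6.86 and 6.78 in shIno80 at day 6 (log2 -0.72 ± 0.14, limma adjusted p = 0.00277). Ldhb, the heart-type subunit of lactate dehydrogenase, read 5.67 and 5.71 versus 4.61 and 4.73, a 2.02-fold fall (log2 -1.02 ± 0.12, limma adjusted p = 0.000246). Both subunits were also lower at day 4, Ldha by 0.46 and Ldhb by 0.60 on the log2 scale. Slc16a3, which encodes the lactate exporter MCT4, read 4.94 and 4.20 in shNT, with 3.39 and 3.19 in shIno80 at day 6. That is a 2.42-fold fall (log2 -1.27 ± 0.23, limma adjusted p = 0.00195), while its day 4 difference of -0.39 did not pass (limma adjusted p = 0.208). Slc16a1, which encodes MCT1, read 4.15 and 4.25 versus 3.73 and 3.75 at day 6, and its fall of log2 0.46 was close to the threshold (limma adjusted p = 0.0350). That call was lost when any one of 8 arrays, those of days 4 and 6, was left out. Pdk1, which shuts off pyruvate dehydrogenase and is a known HIF target, read 2.58 and 2.52 in shNT, with 2.08 and 1.64 in shIno80 at day 4, and 2.89 and 2.79 versus 2.00 and 2.00 at day 6. It was called lower on both days, by log2 0.68 ± 0.17 (limma adjusted p = 0.0112) and 0.84 ± 0.17 (limma adjusted p = 0.00349). Pdk3, a second such kinase, was called higher at day 4 (log2 0.30 ± 0.09, limma adjusted p = 0.0328) and read 0.91 and 0.93 versus 0.97 and 1.00 at day 6, where it did not pass (limma adjusted p = 0.608). The other Pdk3 probe, well above background on 12 of 12 arrays, was called higher on both days, by 0.54 at day 4 (limma adjusted p = 0.0174 over all kept probes) and 0.66 at day 6 (limma adjusted p = 0.0054), so the probes disagree at day 6.

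The 9 hypoxia-induced genes did not move in 1 direction. At day 4, 3 were called higher and 3 lower, and at day 6, 1 higher and 3 lower. That is 66.7% and 44.4% called at days 4 and 6, beside 42.3% and 50.6% of all genes tested. Bnip3, a mitochondrial protein of mitophagy, read 2.70 and 2.39 in shNT, with 1.58 and 1.44 in shIno80 at day 4, and 3.82 and 3.22 versus 1.62 and 1.89 at day 6. It fell 2.05-fold (log2 -1.04 ± 0.21, limma adjusted p = 0.00405) and 3.40-fold (log2 -1.77 ± 0.21, limma adjusted p = 0.000197). Egln3, the prolyl hydroxylase PHD3 that marks HIF-alpha for destruction, read 0.76 and -0.18 in shNT, with -1.87 and -2.16 in shIno80 at day 6, a 4.94-fold fall (log2 -2.31 ± 0.28, limma adjusted p = 0.000248). The shNT arrays were spread over a wide range, but both lay above both shIno80 arrays. Egln1, the prolyl hydroxylase PHD2, was instead called higher at day 4, where it read -1.86 and -1.91 versus -0.93 and -0.95 (log2 0.94 ± 0.26, limma adjusted p = 0.0204). Its day 6 difference of 0.63 did not pass (limma adjusted p = 0.0778).

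Ndrg1, a stress-responsive gene, was lower from day 2. It read 2.42 and 2.09 in shNT, with 0.75 and 0.93 in shIno80 at day 2, 1.57 and 1.95 versus 0.28 and 0.54 at day 4, and 1.58 and 1.37 versus 0.94 and 1.18 at day 6. The fall was 2.66-fold at day 2 (log2 -1.41 ± 0.19, limma adjusted p = 0.00348) and 2.54-fold at day 4 (log2 -1.35 ± 0.19, limma adjusted p = 0.000623). The day 6 difference of -0.42 did not pass (limma adjusted p = 0.0938). Ndrg1 was the one gene of the 34 called lower at day 2. P4ha2, a subunit of the prolyl 4-hydroxylase of collagen, read 0.63 and 0.78 in shNT, with 1.89 and 1.97 in shIno80 at day 4 and 1.17 and 0.92 versus 2.24 and 2.08 at day 6. It rose by log2 1.22 ± 0.17 (limma adjusted p = 0.000587) and 1.12 ± 0.17 (limma adjusted p = 0.000739). P4ha1, a related gene, differed by -0.69 ± 0.28 at day 6 and did not pass (limma adjusted p = 0.0752).

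The other hypoxia genes gave small or variable differences. Adm, which encodes the vasodilator peptide adrenomedullin, read -2.16 and -3.70 in shNT, with -1.57 and -1.50 in shIno80 at day 2, and -3.06 and -4.62 versus -2.38 and -2.78 at day 6. It was called higher at day 4 (log2 1.62 ± 0.55, limma adjusted p = 0.0452), a call lost without either array of either hairpin at day 4, either shIno80 array of day 2 or either shIno80 array of day 6. The differences of 1.39 at day 2 and 1.26 at day 6 did not pass. Car9, a carbonic anhydrase of the cell surface, was called lower at day 6 by log2 0.37 ± 0.10 (limma adjusted p = 0.0125). Vegfa, the vascular growth factor, differed by 0.25 ± 0.29 at day 6 and did not pass (limma adjusted p = 0.516).

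A second look at the genes is given by their other probes. For 17 genes, 23 further probes passed the filter, and 20, 23 and 23 of these had the sign of the reported probe at days 2, 4 and 6. Of the 15 that belong to genes called at day 4, 7 were called in the same direction, and of the 16 at day 6, 11 were. The 8 not called at day 4 belong to Hk1 (3 probes), Aldoc, Pfkfb3, Pgk1, Pdk1 and Slc16a1, and the 5 at day 6 to Hk1 (3 probes), Slc2a3 and Slc16a1. A further probe was called where the reported one was not for Vegfa at day 4 (log2 0.68, limma adjusted p = 0.031 over all kept probes) and for Pdk3 at day 6.

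The differences between hairpins grew over time in some genes, and the test of that growth is the interaction of hairpin and day. Between days 2 and 4, the difference changed in 7 of 34 genes, 2 upwards and 5 downwards, where limma called 15.3% of all genes, 8.17% upwards and 7.15% downwards. Pfkp changed by -1.62 ± 0.23 (limma adjusted p = 0.00369), Bnip3 by -1.28 ± 0.29 (limma adjusted p = 0.0228) and Aldoc by -1.28 ± 0.32 (limma adjusted p = 0.0311). Pdk1 and Pgam2 changed by -0.93 and -0.78, and Pfkfb3 and P4ha2 by 1.19 and 0.93. The count fell to 1 without replicate 1 of shNT at day 4 and without replicate 2 of shIno80 at day 4, to 2 without replicate 1 of shIno80 at day 2, to 3 without replicate 2 of shNT at day 4 and to 4 without replicate 1 of shIno80 at day 4. It was 0 with normexp fitted to all spots, with 6 at an unadjusted p under 0.05. Between days 4 and 6, 1 gene, Pgam2, changed (log2 -0.83 ± 0.16, limma adjusted p = 0.0363), where 3.8% of all genes were called, 1.55% upwards and 2.25% downwards. That count ranged from 0 to 2 when single arrays were left out.

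Within shNT, 8 of 34 genes changed from day 2 to day 6, 2 higher and 6 lower, beside 22.7% of all genes (11.7% higher and 11.1% lower). The median change was -0.01. Within shIno80, 26 of 34 changed, 6 higher and 20 lower, beside 48.9% of all genes (19.8% higher and 29.1% lower), with a median of -0.55. Pfkp fell in both, by 1.06 in shNT (limma adjusted p = 0.00333) and 3.14 in shIno80 (limma adjusted p = 3.79e-06) on the log2 scale. Pfkm fell in both as well, by 0.91 and 1.52. Slc2a1 and Slc2a3 changed by 0.01 and 0.36 in shNT, which did not pass, and rose by 0.87 and 1.13 in shIno80. Each slide held the arrays of 1 day, so slide and day cannot be told apart in these within-hairpin changes. Whether a gene's change over these days differed between the hairpins was not tested. With normexp fitted to all spots the counts were 0 in shNT, with 5 at an unadjusted p under 0.05, and 12 in shIno80. The shNT count fell to 4 without replicate 2 of shNT at day 6.

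**Figure D4:**
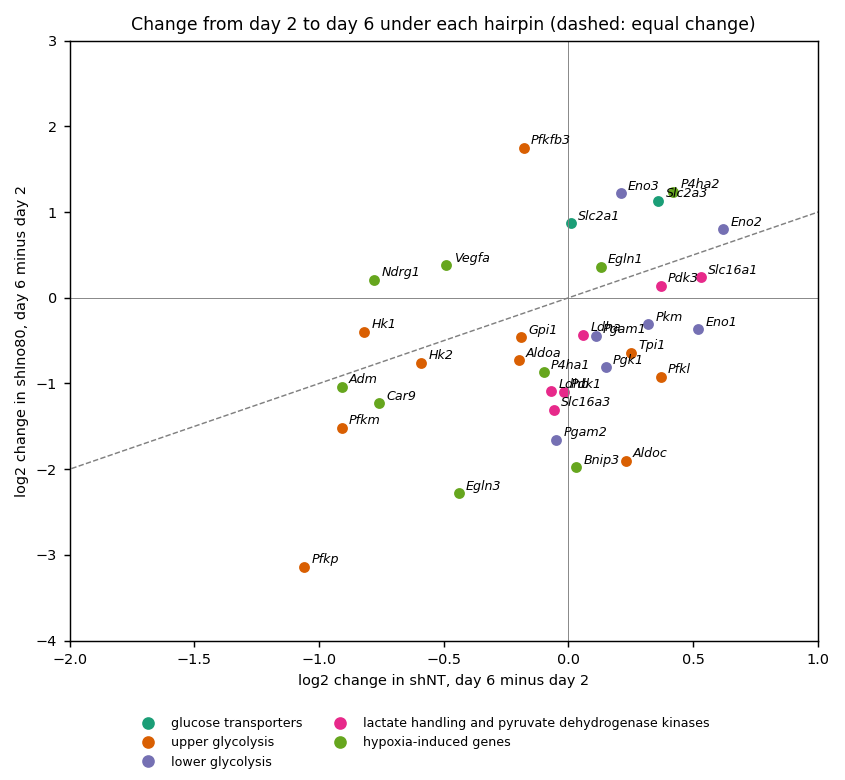
Log2 change from day 2 to day 6 in shNT (x axis) and in shIno80 (y axis) for 34 genes, coloured by role; the dashed line marks equal change. Points spread further along the shIno80 axis, from Pfkp at -3.14 to Pfkfb3 at 1.75, than along the shNT axis.

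The genes that control HIF itself were examined as a group of 12. At day 6, 2 were called higher and 5 lower, versus 1 and 6 at day 4 and 0 and 1 at day 2. That is 58.3%, 58.3% and 8.33% of the group at days 6, 4 and 2, beside 50.6%, 42.3% and 12.5% of all genes tested. The gene called at day 2 was Vhl, which was called lower on each day (log2 -0.68, -0.48 and -0.48 at days 2, 4 and 6). Hif1a, the main oxygen-labile subunit, differed by 0.05, 0.00 and 0.13 (each ± 0.13) at days 2, 4 and 6 and did not pass. Its partner Arnt read 1.10 and 1.18 in shNT, with 0.23 and 0.19 in shIno80 at day 6, a 1.91-fold fall (log2 -0.93 ± 0.10, limma adjusted p = 9.46e-05). Epas1, which encodes HIF2-alpha, read -2.60 and -2.79 versus -4.11 and -4.31, a 2.86-fold fall (log2 -1.52 ± 0.26, limma adjusted p = 0.00144). Arnt2 fell by 1.14 ± 0.18 (limma adjusted p = 0.00101). Siah2, a ubiquitin ligase that acts on the prolyl hydroxylases, rose by 1.94 ± 0.18 at day 4 (limma adjusted p = 7.41e-05) and 1.07 ± 0.18 at day 6 (limma adjusted p = 0.00124).

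Genes of neighbouring pathways were counted the same way. Among 23 other glycolytic isozymes and glucose transporters, 6 were called higher and 4 lower at day 4, and 5 and 6 at day 6, with a median of -0.12 at day 6. The shares called, 43.5% and 47.8%, lie near those of all genes, 42.3% and 50.6%. Slc2a12, a glucose transporter, was not well above background on any shNT array and was at least 3.79-fold higher in shIno80 at day 6 (limma adjusted p = 2.12e-06), and Slc16a7, which encodes MCT2, at least 4.54-fold higher (limma adjusted p = 0.000233). These bounds set the shIno80 mean against the lowest signal that still counted as well above background on the shNT arrays. Slc2a8, another glucose transporter, was called lower on each day (log2 -0.69, -1.14 and -1.70 at days 2, 4 and 6). Slc2a4, Slc2a6 and Slc2a10 were not called at day 6, while Slc2a6 was called higher at day 4 (log2 1.12 ± 0.2, limma adjusted p = 0.00243). Ldhd and Ldhc, further lactate dehydrogenases, were lower by 2.62 ± 0.36 and 2.12 ± 0.23 on the log2 scale, and Ldhd was well above background on 1 of the 2 shIno80 arrays. Of 11 genes for the entry of pyruvate into mitochondria, 1 was called higher and 7 lower at day 6 (72.7% called), with a median of -0.68. Pdp1, the phosphatase that reactivates pyruvate dehydrogenase, fell by 1.13, Pdk4, one of its kinases, by 1.02 and Pdhx, a structural part of the complex, by 0.92, while Mpc2, of the pyruvate carrier, rose by 0.80.

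Of 7 pentose phosphate genes, 0 were called higher and 4 lower at day 6 (57.1% called, beside 50.6% of all genes), with a median of -0.56. These were Rpe (log2 -0.85), Pgd (-0.68), Taldo1 (-0.58) and Tkt (-0.56), which span both branches of the pathway. Of 5 gluconeogenesis genes, 1 was called higher and 2 lower at day 6 (60% called): G6pc3 rose by 0.68, and Pck2 and Fbp1 fell by 1.79 and 1.60. Of 31 other hypoxia-induced genes, 13 were called higher and 10 lower at day 4 and 7 and 11 at day 6, with a median of 0.06 at day 6. That is 74.2% and 58.1% called, beside 42.3% and 50.6% of all genes. By direction, all genes were called higher at 20.9% and lower at 21.3% at day 4, and at 21% and 29.5% at day 6. Lox, the collagen cross-linking oxidase, was at least 3.53-fold higher in shIno80 at day 6 (limma adjusted p = 4.88e-06), since it was not well above background in shNT. Errfi1 rose by 2.53 ± 0.11 (limma adjusted p = 2.01e-06), and Loxl2 fell by 2.59 ± 0.28 (limma adjusted p = 0.000124).

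**Figure D5:**
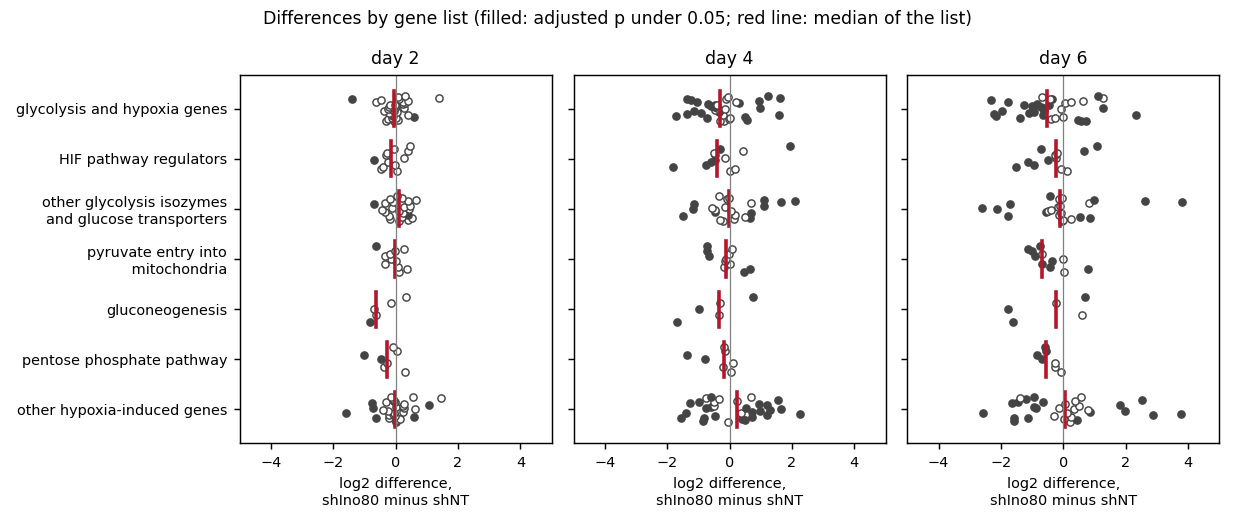
Log2 difference, shIno80 minus shNT, at days 2, 4 and 6 for the genes of 7 lists, with filled points at an adjusted p under 0.05 and a red line at each list's median. At day 6 the medians are -0.54 for the glycolysis and hypoxia genes, -0.68 for pyruvate entry and -0.56 for the pentose phosphate genes. They are -0.24 for the HIF regulators, -0.24 for gluconeogenesis, -0.12 for the other isozymes and transporters and 0.06 for the other hypoxia-induced genes. The median over all genes tested is -0.14.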

How the data were processed

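RNA from 12 samples of J1 cells was hybridised to single-colour Agilent arrays. The authors deposited 1 scanner file per array, with processed intensity per spot from Feature Extraction 9.5.3.1, background-subtracted and detrended within the array per the file headers. They also deposited a value table of log2 values, each column a scanner file's mean intensity times 1 factor (matched within 1e-06), and sample names were taken from it. The labels name Cy5, while the files hold the green channel.

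The processed intensity was put on the log2 scale, and each array's 75th percentile was subtracted. Spots marked non-uniform or population outlier were dropped and the others of a probe averaged. Of 41174 probes, 28654 passed the filter, which asked for both arrays of some group to be well above background. The kept probe with the highest mean represented a gene. Group means of 6 groups were fitted to all 12 arrays with limma 3.58.1 in R 4.3.3 (6 residual degrees of freedom), with Benjamini-Hochberg adjustment over 19183 genes and a threshold of 0.05. The fit was tested on simulated data. The number of arrays, 2 per group, limits the precision.

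Genes other than the listed ones were named by a rule: at most 4 called genes per list, those with the largest differences. Hif1a, Vhl, Slc2a4, Slc2a6, Slc2a8 and Slc2a10 were named outside this rule. A gene this rule named is not reported here. The listed genes, lists and markers were chosen with earlier results of these data known. Alternatives were other background corrections (normexp with an offset of 50), scalings, probe rules, the arrays of 1 day alone, the replicate number as a block, each array left out, and the attachments of the scanner files. Normexp without marked spots, and the 6 arrays that both records place alike, were added after the data were seen. Promoters are from RefSeq (GRCm38.p6).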

Additional observations from a re-analysis of the deposited data

Results flagged for a closer look

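Between days 2 and 4, the difference between shIno80 and shNT changed, by limma's test of the interaction, in 7 of the 34 genes, beside 15.3% of all genes tested. With normexp fitted to all spots none of the 34 was called, and the count fell without some single arrays, as given above. The change in the log2 difference was -1.62 for Pfkp, 1.19 for Pfkfb3, -1.28 for Aldoc, -0.78 for Pgam2, -0.93 for Pdk1, -1.28 for Bnip3 and 0.93 for P4ha2. Between days 4 and 6 the difference changed for Pgam2 alone of the 34, by -0.83, beside 3.8% of all genes tested. Each day was hybridised on its own slide, and each slide held both hairpins.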

How the results depend on the processing

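Every difference between the hairpins that was called at day 2, 4 or 6 among the 34 genes kept its sign under each alternative except the scanner file attachments. Where arrays were only left out, groups that do not overlap fix that sign. Under those attachments, limma called 0 of the 34 genes at days 2, 4 and 6, 0 for both changes in the difference between days and 0 within each hairpin. At an unadjusted p under 0.05 there were 0 in the first 5 comparisons and 6 in each of the last pair. Normexp fitted to all spots gave 0, 4 and 13 at days 2, 4 and 6, 0 and 0 for the changes in the difference, and 0 and 12 within shNT and shIno80 (unadjusted 4, 11, 18, 6, 1, 5 and 19). Its fitted background mean ran from -898 to -12.5, with a lowest background-subtracted spot of -63920. Refitted without marked spots, a setting chosen after that result was seen, the means ran from -23.8 to -12.5 and the counts were 2, 22 and 27, and 4 for the change from day 4 to day 6. The cause was not tested.

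The day 2 count of 2 became 1 under median scaling and 0 with the arrays of the day alone (3 unadjusted). The 7 changes from day 2 to day 4 became 4 with no filter on dim probes and 4 when kept probes of a gene were averaged. The 1 change from day 4 to day 6 became 0 under median scaling (10 unadjusted), 0 with no filter (12 unadjusted), 4 with the value table, 3 with probes well above background on all 12 arrays and 2 with the mean of probes. The 8 within shNT became 5 under median scaling and 5 with no filter. With the replicate number as a block, that 1 became 3, and no other count moved by more than 1.5 times. The pairs of replicate differences correlated at 0.296, 0.117 and 0.083, so the numbers were not taken to pair the samples. With single arrays left out, the counts ranged from 1 to 4 at day 2, 11 to 23 at day 4, 20 to 27 at day 6, 1 to 8 and 0 to 2 for the changes in the difference, and 4 to 8 within shNT. The all-gene median difference at day 6 was -0.14, and 0.06 with the value table. At day 4 it was -0.05, and -0.19 under median scaling. With normexp on all spots it was -0.30 at day 2, -0.19 at day 4 and 0.10 at day 6.

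Values past the threshold in 1 of the settings that changed sign were 39 under the attachments and 2 under normexp on all spots, where Slc2a12 and Lox were -0.13 and -0.18 at day 4. Under the attachments Pfkm was -0.11, Fbp1 0.40, Rpe 0.20 and Ino80 0.12 at day 2. At day 4 Pdk3 was -0.12, Egln1 -0.04, Ndrg1 0.33, Epas1 0.48, Pdk4 0.08, Fbp1 0.34, G6pc3 -0.09, Rpe 0.09 and Ino80 0.16. At day 6 Slc2a1 was -0.22, Hk1 -0.06, Pfkl 0.14, Pfkp 0.08, Pfkfb3 -0.19, Aldoc 0.03, Pgam2 0.07, Eno1 0.18, Eno3 -0.11, Pkm 0.12, Ldhb 0.08, Slc16a1 0.06, Car9 0.00, P4ha2 -0.20, Siah2 -0.16, Arnt2 0.04, Arnt 0.02, Ldhd 0.05, Slc16a7 -0.10, Ldhc 0.05, Pdp1 0.02, Mpc2 -0.08, Pck2 0.01, Pgd 0.07, Errfi1 -0.14 and Ino80 0.19. Of the 102 differences of the 34 genes, those past the threshold in neither setting changed sign 23 times under the attachments, 20 under normexp on all spots, 7 each under quantile normalization and the value table and 5 under median scaling.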
